A study of Mus musculus with 8 samples.

Results

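Follicular regulatory T (TFR) cells were compared with follicular helper T (TFH) cells from peripheral lymph nodes (pLN) of immunized mice. The comparison used 4 of the 8 arrays in the data, which were all arrays labelled TFR or TFH. The mice were of the strain B6.Cg-Foxp3<tm1Mal>, a Foxp3-EGFP reporter in which cells that express Foxp3 fluoresce green, and they received KLH, a protein antigen, with alum under the skin. They were 8 to 14 weeks old and of both sexes, and cells were taken at d12 and d25 after immunization. Each array was hybridized with RNA from a pool of 8 to 15 mice, so that 1 array stood for 1 cell type on 1 day, with 2 arrays per cell type. TFH cells had been sorted as GFP- PD1hi GL7+ CD4 T cells and TFR cells as GFP+ PD1hi cells with or without GL7, a marker of germinal center (GC) cells. The TFR samples could therefore hold GL7- cells that the TFH gate left out, and what this contributed to a difference cannot be told apart from the cell type. Treg (GFP+ PD1lo GL7-) and naïve CD4 T (Tnaive, GFP- PD1lo GL7-) cells of the same lymph nodes filled the other 4 arrays. No label says that d12 and d25 came from separate experiments, so the p-values measure the spread between these arrays only. Since RNA was measured in sorted pools, fewer cells of a type and less RNA per cell cannot be told apart. Of 29924 genes on the arrays, 15426 were tested, namely those with a probe detected well above background in TFR or in TFH cells on d12 as well as d25, and 14270 passed this limit on each of the 4 arrays.

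TFH cells provide help to B cells in the GC through CD40 ligand and the cytokines IL21 and IL4, a program that depends on the transcription factor Bcl6. TFR cells enter the same follicles but carry Foxp3, the transcription factor of Treg cells, and restrain the GC reaction. Treg cells take up IL2 through the high affinity receptor chain CD25 (Il2ra) while secreting little IL2 themselves, and IL2 signaling through Stat5 is known to oppose Bcl6. Homing to the follicle is guided by the chemokine receptor Cxcr5 and by loss of Ccr7.

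All 4 cell types of d12 were hybridized on 1 slide, but at d25 the TFH and Tnaive arrays shared a slide and the TFR and Treg arrays another. Hence slide and cell type cannot be told apart at d25 while d12 is free of this. Between 18254 and 19867 of 39429 probes were above background per array, and none was saturated. The number of arrays limits the precision. The TFH array of d25 stood apart in markers of B cells, of which 12 of 14 were highest on this array among the 4 TFR and TFH arrays. The summed level of the 14 markers was 12644 RU (relative units of normalized intensity) in TFH cells at d12 and 48412 RU at d25, as against 21207 and 26269 RU in TFR cells. At d12, Cd74 (1807 RU in TFH, 10660 RU in TFR cells) and Cd79b (1073 and 3965 RU) were higher in TFR cells, whereas 9 of the 14 markers were lower there. The defining marker Ms4a1 (273 and 2626 RU in TFH, 79 and 335 RU in TFR cells) was highest on the TFH array of d25 as well, while Pax5 was at 20 to 22 RU on all 4 arrays, next to the floor of 20 RU.

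**Figure D1:**
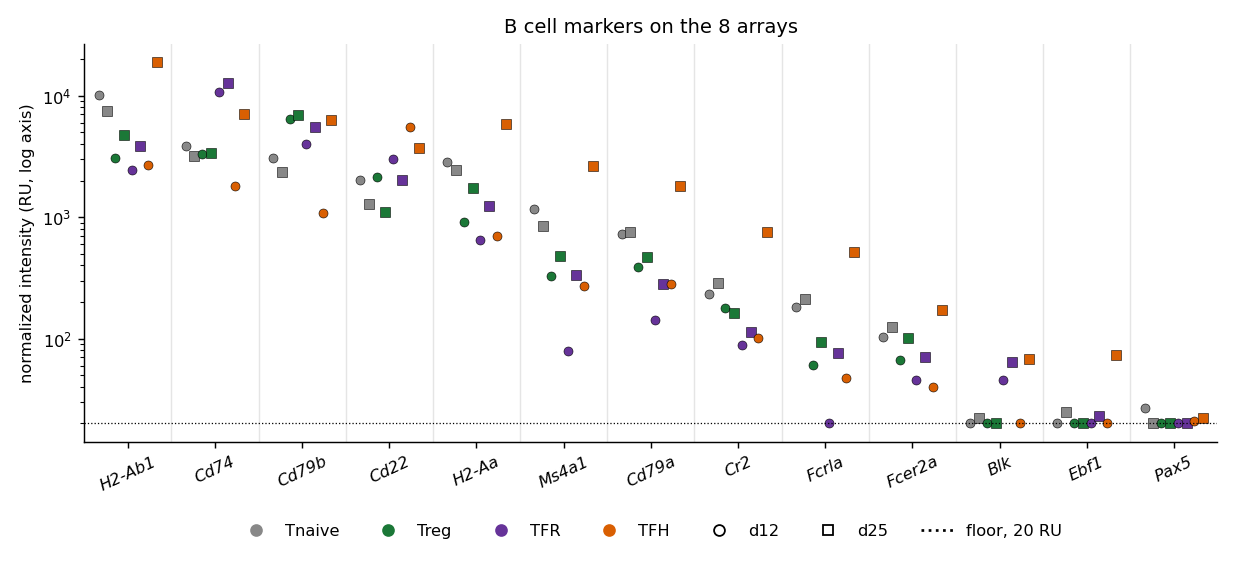
Normalized intensity (RU, log axis) of B cell marker genes on the 8 arrays, with 1 point per array, color for the cell type and shape for the day. On the TFH array of d25, Ms4a1 was at 2626 RU, against 273 RU on the TFH array of d12, while Cd74 was highest on both TFR arrays.

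TFR and TFH cells differed in 3487 genes (22.6% of those tested) at a limma adjusted p below 0.05, and these are named called genes hereafter. Of these, 1820 were higher (11.8%) and 1667 lower (10.8%) in TFR cells. Among genes above background on all 4 arrays, the largest differences were those of Foxp3, Lrrc32, and Dnah7b on the TFR side and of Padi4, Sostdc1, and Pde3b on the TFH side. The median log2 difference of TFR minus TFH cells over all genes tested was -0.024. A difference of at least 2-fold was seen for 1560 of the called genes, 912 higher and 648 lower, and of at least 4-fold for 343 higher and 228 lower genes. All 3487 called genes had the same sign at d12 and d25. The test fixes this in advance, since a disagreement between the days counts as spread, so it is no separate result. On the d12 arrays alone, which share a slide, 2009 genes (13.0%) were at least 2-fold apart, 1105 higher and 904 lower in TFR cells, and at d25 these were 2090 genes (13.5%), 1150 higher and 940 lower. Of the 1560 called genes with a 2-fold difference, 1429 also differed at least 2-fold in the same direction at d12 alone. The d12 arrays are part of the mean that was called, so this count is not independent of the calls. The differences of both days correlated across genes with Pearson r = 0.829 and Spearman rho = 0.697, where genes are not independent replicates. Without the TFR array of d12 939 genes were called and without that of d25 1138, and with the slide as a term 1414.

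**Figure D2:**
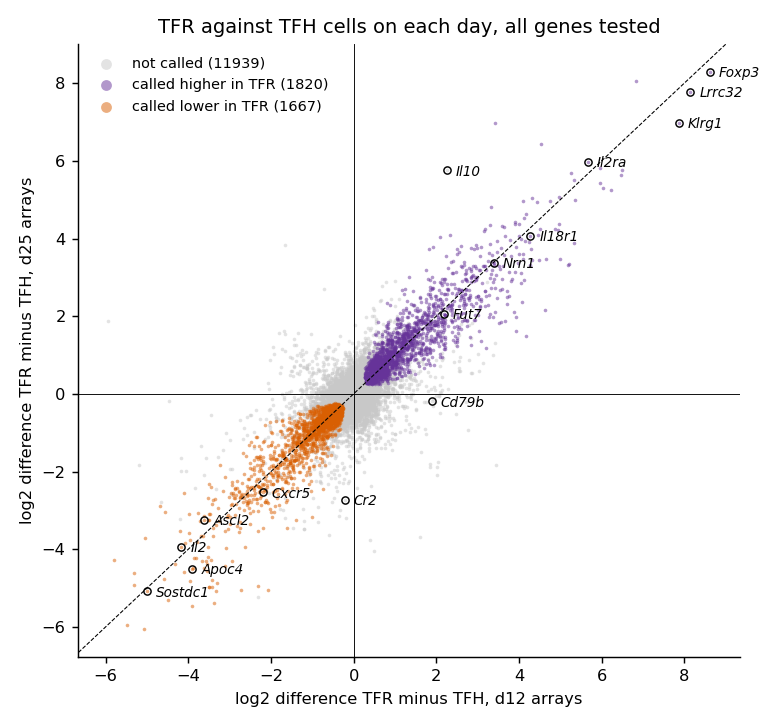
Log2 difference of TFR minus TFH cells on the d12 arrays (horizontal) and the d25 arrays (vertical) for 15426 genes, with 1 point per gene, color for genes called higher (1820) or lower (1667) in TFR cells, and the dashed line for equal differences. Called genes lie near the line, since the call itself depends on the agreement of the days, whereas Cd79b (1.89 at d12 and -0.19 at d25) lies off it.

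The sort labels were checked first. Foxp3 (chrX:7172301-7172360, position of the probe in build NCBI37) had 79 RU at d12 and 99 RU at d25 in TFH cells against 30876 and 30906 RU in TFR cells, a log2 difference of 8.45 ± 0.16 (SE, n = 2 arrays per cell type here and hereafter). Since GFP from the Foxp3 locus was used for the sort, this difference is a check of the gate and is not a result. The follicular genes Cxcr5, Bcl6, and Pdcd1 were above Treg levels in TFR cells on both days, but TFH cells had still higher levels. Cxcr5 was at 134832 and 172249 RU in TFH and at 29354 and 29726 RU in TFR cells, a difference of -2.37 ± 0.22 (adjusted p = 0.00335). Bcl6 was at 63843 and 86439 RU in TFH and at 20536 and 27770 RU in TFR cells (-1.64 ± 0.14, adjusted p = 0.00296). Pdcd1, which encodes the sorted surface protein PD1, was at 171649 and 217537 RU as against 67229 and 89002 RU (-1.32 ± 0.15, adjusted p = 0.00564). Thus the PD1hi gates of both cell types did not hold equal Pdcd1 levels. Icos, a costimulatory receptor of follicular T cells, was at 98048 and 137295 RU in TFH and 70693 and 88903 RU in TFR cells and was not called (-0.55 ± 0.19, adjusted p = 0.1).

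**Figure D3:**
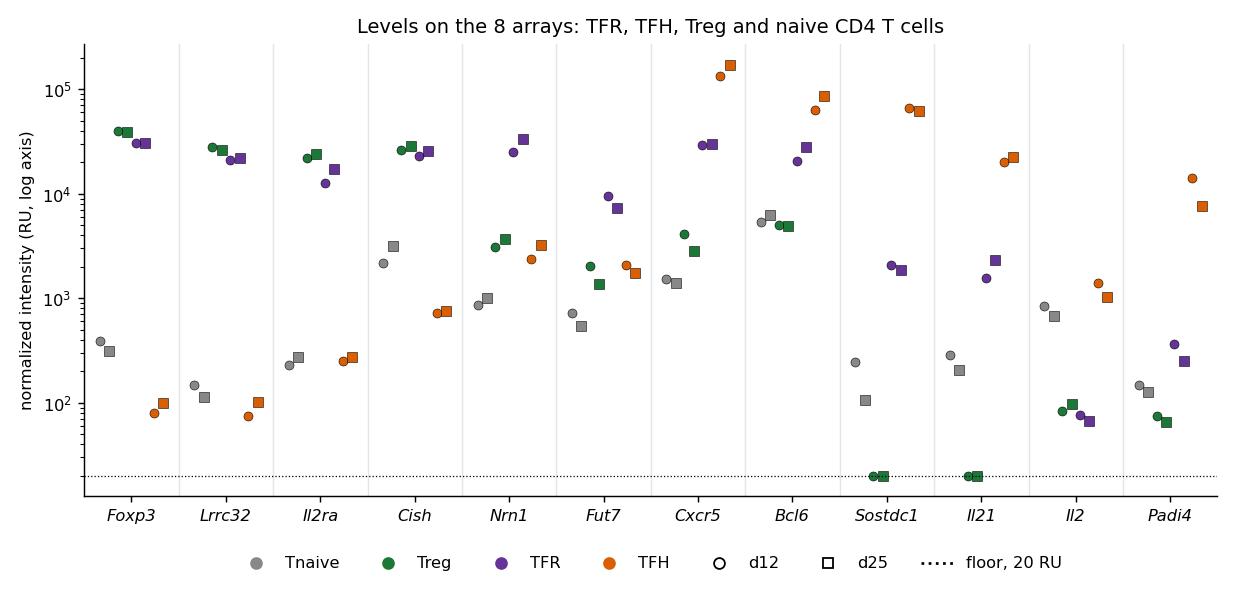
Normalized intensity (RU, log axis) of 12 genes on the 8 arrays, with 1 point per array, color for the cell type, shape for the day, and a dotted line for the floor of 20 RU. The TFR points of Nrn1 (25126 and 33334 RU) and Fut7 (9495 and 7301 RU) lie above all other arrays, and the TFH points of Sostdc1 (66562 and 62470 RU) and Padi4 (14184 and 7695 RU) likewise.

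Nrn1, Fut7, and Sostdc1 each set one of the cell types apart from all others. Nrn1 (chr13:36817941-36818000), encoding the GPI-anchored protein neuritin, was at 2391 and 3230 RU in TFH and at 25126 and 33334 RU in TFR cells, while Treg cells had 3093 and 3666 RU and Tnaive cells 854 and 1005 RU. The difference of TFR minus TFH cells was 3.38 ± 0.09 (10.4-fold, adjusted p = 0.000369), and both TFR arrays were far above the remaining 6 arrays. Fut7 (chr2:25281802-25281861), the fucosyltransferase that completes selectin ligands, was at 2097 and 1748 RU in TFH and 9495 and 7301 RU in TFR cells (2.12 ± 0.10, 4.35-fold, adjusted p = 0.000723). Treg cells lay close to TFH cells for Fut7 with 2035 and 1372 RU. Sostdc1 (chr12:37044197-37044256), a secreted antagonist of BMP and Wnt signals, was at 66562 and 62470 RU in TFH and 2084 and 1846 RU in TFR cells, whereas Treg cells were at the floor on both days (-5.04 ± 0.31, 32.9-fold lower, adjusted p = 0.00131). In all, both TFR arrays were at least 2-fold above all 6 other arrays for 307 genes (1.99%), of which 289 were called higher in TFR than TFH cells. Both TFH arrays were so for 264 genes (1.71%), of which 258 were called lower in TFR cells. The former included Ahr, Ccr6, Ccr8, Cxcr3, Il10, Il18r1, Tbx21, and Tnfrsf1b, the latter Ascl2, Bcl6, Cxcr4, Cxcr5, Il4, Il21, S1pr2, and Vdr. Il10 was among the former without being called.

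Genes of Treg identity and suppression formed the clearest group on the TFR side. Foxp3, the gene of the gate, is counted among them but is not a result. Of 27 tested members of this list (81.5% called, all genes 22.6%), 22 were called higher and none lower in TFR cells. The median log2 difference was 2.94. Lrrc32, which presents latent TGFb on the surface of Treg cells, was at 75 and 101 RU in TFH and 21148 and 22127 RU in TFR cells (7.96 ± 0.20, adjusted p = 0.000369). Ikzf4 (Eos), a partner of Foxp3, was at 513 and 746 RU as against 20881 and 23914 RU (5.17 ± 0.15, adjusted p = 0.000416), and its other probes differed by 1.39 to 4.84. In contrast, several Treg genes were also well expressed in TFH cells, and their differences were small. Ikzf2 (Helios) was at 9409 and 9673 RU in TFH and 19642 and 24128 RU in TFR cells (1.19 ± 0.19, adjusted p = 0.0157). Ctla4, which removes B7 ligands from antigen-presenting cells, was at 6485 and 8128 RU as against 9805 and 13853 RU (0.68 ± 0.09, adjusted p = 0.00913). The arrays of the cell types did not overlap for either gene, but with 2 arrays per cell type this is no separate result. Neither gene was called with the slide as a term (adjusted p = 0.0637 for Ikzf2 and 0.0576 for Ctla4). The cytokine subunit gene Ebi3 was at 3589 and 3399 RU in TFH and 25591 and 25159 RU in TFR cells (2.86 ± 0.14, adjusted p = 0.000766). The TNF receptor family members Tnfrsf1b (1178 and 1618 RU as against 12400 and 16018 RU), Tnfrsf4 (51249 and 39920 RU as against 181156 and 186310 RU), and Tnfrsf18 (26891 and 23078 RU as against 84352 and 90196 RU) were called higher in TFR cells by 3.35, 2.02, and 1.81 on the log2 scale.

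Some Treg genes were not above background on 1 or both TFH arrays and give a lower limit of the fold only. For these and other such genes, the mean of the brighter cell type was set against, per array of the dimmer cell type, the higher of the probe's own value and the lowest value of any probe well above background on that array. Klrg1, an inhibitory receptor of differentiated effector cells, was above background on 1 TFH array. It was at 29 and 69 RU in TFH and 6798 and 8719 RU in TFR cells, and thus at least 132-fold higher (adjusted p = 0.000875). Itgae (CD103) was at least 33.2-fold higher, Gzmb (granzyme B, above background on 1 TFH array) at least 35.8-fold, and the ectonucleotidase gene Entpd1 (CD39) at least 13.0-fold. The 5 tested members that were not called were Il10, Nt5e, Izumo1r, Tnfrsf9, and Lag3. Il10 had the largest value among these with 442 and 86 RU in TFH and 2104 and 4656 RU in TFR cells. Both TFR arrays were above both TFH arrays, but the difference spread between the days and was not called (4.0 ± 1.04, adjusted p = 0.0529).

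Il2ra and some feedback genes of IL2 signaling were higher in TFR cells, whereas Il2 itself was higher in TFH cells. Il2ra (CD25) was at 252 and 276 RU in TFH and at 12789 and 17384 RU in TFR cells (5.82 ± 0.11, 56.5-fold, adjusted p = 0.000314), with Treg cells at 22127 and 24181 RU. Il2 was at 1388 and 1023 RU in TFH and 77 and 67 RU in TFR cells (-4.05 ± 0.18, adjusted p = 0.000655). Of 15 IL2 receptor and signal genes (46.7% called, all genes 22.6%), 7 were called higher and none lower in TFR cells, with a median of 0.43. Cish, a feedback inhibitor of cytokine receptors, was at 724 and 762 RU in TFH and 22722 and 25437 RU in TFR cells (5.02 ± 0.14, adjusted p = 0.000369), and Socs2, another feedback inhibitor, was at 95 and 194 RU as against 2781 and 3666 RU (4.56 ± 0.25, adjusted p = 0.000965). Tnaive cells had more Cish than TFH cells with 2157 and 3130 RU. Prdm1 (Blimp1), the repressor that opposes Bcl6, was at 608 and 566 RU in TFH and 2650 and 4080 RU in TFR cells (2.49 ± 0.21, adjusted p = 0.00261). The survival gene Bcl2l1 (2.25), the kinase gene Pim1 (0.99), and the receptor chain gene Il2rb (0.86) were called higher as well. The 8 members that were not called included the common receptor chain Il2rg (0.43, adjusted p = 0.0501), the kinases Jak1 (-0.43, adjusted p = 0.0512) and Jak3 (0.20), and Stat5a (0.34) and Stat5b (-0.10).

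Stat5 binds the palindrome TTCNNNGAA, which reads the same on both strands, and the start region of Cish is shown since it holds 2 copies (in capitals). The windows searched ran from 250 bases before to 50 bases after the start of each gene in the RefSeq annotation of GRCm38.p6.
Cish, chr9:107296654-107296682, + strand: cagttTTCCTGGAAagTTCTTGGAAatct
The 2 copies begin at positions 1 and 12 of the transcript. Of 32851 gene windows, 2726 (8.30%) held the motif. A window was found for 5 of the 7 called members, where only Cish had it, and for all 8 members that were not called, where only Socs3 had it. Socs2 and Il2rb were not matched. A match describes the letters of the window and not the binding of Stat5.

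**Figure D4:**
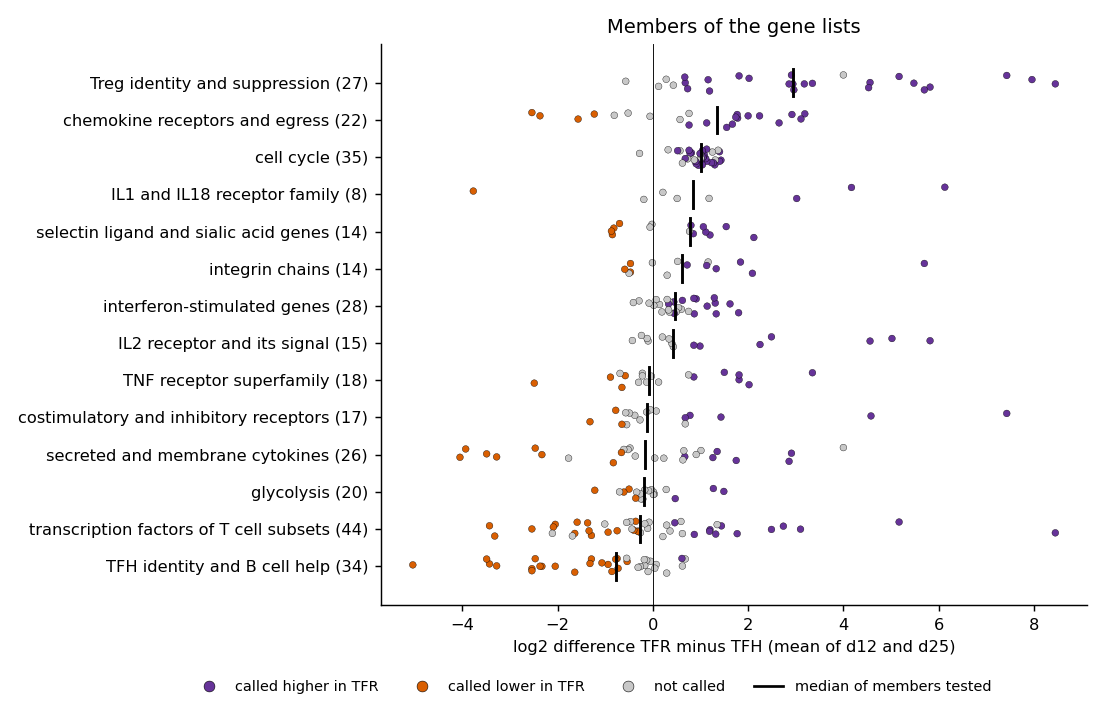
Log2 difference of TFR minus TFH cells (mean of d12 and d25) for the tested members of 14 gene lists, with 1 point per gene, the number of tested members in parentheses, color for called genes, and a black bar for the median. The median is 2.94 for Treg identity genes and -0.77 for TFH identity genes, against -0.024 over all genes tested.

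TFH identity and B cell help genes were mostly lower in TFR cells. Of 34 tested members (61.8% called, all genes 22.6%), 20 were called lower and 1 (Slamf1, 0.61 ± 0.14) higher in TFR cells. Sostdc1, the member with the largest difference (-5.04), is counted among the 20. The study had singled it out from data that include these arrays, so its call is not independent evidence. The median was -0.77. Il21, the main helper cytokine for GC B cells, was at 20301 and 22346 RU in TFH and 1551 and 2307 RU in TFR cells (-3.49 ± 0.25, adjusted p = 0.00178). In Treg cells, Il21 was at the floor on both days. Il4, which supports class switch, was at 53188 and 58215 RU in TFH and 11092 RU in TFR cells on both days (-2.33 ± 0.39, adjusted p = 0.0171). Tnfsf8 (CD30 ligand) was at 2259 and 3124 RU as against 204 and 365 RU (-3.28 ± 0.23, adjusted p = 0.00177). Cd40lg, encoding CD40 ligand, was dim with 126 and 170 RU in TFH and 21 and 33 RU in TFR cells, where it was not above background, and hence was at least 2.59-fold lower. Ascl2, a transcription factor that starts the TFH program, was at 43718 and 61146 RU in TFH and 3578 and 6458 RU in TFR cells (-3.43 ± 0.24, adjusted p = 0.00166). Its other probe above background differed by -0.22 only, and the mean of its probes by -1.82. Pou2af1, a coactivator with octamer factors, was at 40749 and 74764 RU as against 7893 and 11457 RU (-2.54 ± 0.32, adjusted p = 0.0082). Tcf7 (-1.29 ± 0.09) and Lef1 (-0.75 ± 0.10), which act upstream of Bcl6, and the helper adaptor gene Sh2d1a (-0.54 ± 0.13) were called lower. The 13 members that were not called included Tigit (0.68), Batf (0.29), Cd200 (-0.05), and Slamf6 (0.04). In this list, 10 members were called lower without the TFR array of d12 and 13 without that of d25.

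Among 26 tested cytokine genes (53.8% called, all genes 22.6%), 6 were called higher and 8 lower in TFR cells, with a median of -0.17. Besides Il2, Il21, Il4, Tnfsf8, and Cd40lg, the lower members were Tgfb3, Tnf, and Tnfsf11. Tgfb3, encoding a TGFb isoform, was at 2352 and 1756 RU in TFH and 197 and 90 RU in TFR cells (-3.93 ± 0.19, adjusted p = 0.000775), in contrast to Tgfb1, which was called higher (3217 and 2639 RU as against 4624 and 4627 RU, 0.67 ± 0.10). Cd70, the ligand of CD27, was at 196 and 418 RU in TFH and 1887 and 2453 RU in TFR cells (2.91 ± 0.26, adjusted p = 0.0033). Lta, which builds lymphotoxin, was at 5266 and 4945 RU as against 12004 and 14047 RU (1.35 ± 0.11, adjusted p = 0.00243). Areg (1.26) and Lif (1.75, at least 2.76-fold, above background on 1 TFH array) were the remaining members called higher beside Ebi3. Leaving out the TFR array of d25 left 3 cytokine genes called higher and 4 lower.

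Receptors of the IL1 and IL18 family showed opposite differences. Il1rl1 (ST2), the receptor of IL33, was above background on 1 of the TFH arrays only (31 and 72 RU) and was at 2784 and 3942 RU in TFR cells, thus at least 55.8-fold higher (adjusted p = 0.000496). Il18r1 was at 503 and 840 RU in TFH and 9710 and 14060 RU in TFR cells (4.17 ± 0.16, with 3.35 for its other probe, adjusted p = 0.000496), and its partner chain Il18rap was at least 5.2-fold higher (adjusted p = 0.0269). Il1r1, the signaling receptor of IL1, was at 5821 and 3981 RU in TFH and 675 and 185 RU in TFR cells (-3.77 ± 0.36, adjusted p = 0.00377). The decoy receptor gene Il1r2 was high on all 4 arrays with 22127 and 10629 RU in TFH and 31969 and 37901 RU in TFR cells and was not called (1.18 ± 0.34, adjusted p = 0.0691). In total, 3 of the 8 tested members were called higher and 1 lower (50% called, all genes 22.6%), with a median of 0.85.

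In the TNF receptor superfamily (55.6% called, all genes 22.6%), 6 of 18 tested members were called higher and 4 lower in TFR cells. The median was -0.08. Apart from Tnfrsf1b, Tnfrsf4, and Tnfrsf18, the higher ones were Cd40 (75 and 142 RU in TFH, 337 and 390 RU in TFR cells, 1.81 ± 0.21), Tnfrsf10b (1.5), and Tnfrsf25 (0.86). Fas, the death receptor, was at 8891 and 12598 RU in TFH and 5963 and 7628 RU in TFR cells (-0.65 ± 0.09, adjusted p = 0.0101), and Tnfrsf12a (-0.58), Tnfrsf14 (-0.89), and Tnfrsf21 (at least 2.31-fold) were lower as well. Leaving out the TFR array of d12 left 3 members called higher and 1 lower. Among 17 costimulatory and inhibitory receptors (47.1% called, all genes 22.6%), 5 were called higher and 3 lower in TFR cells, with a median of -0.13. Havcr2 (Tim3) was at the floor in TFH cells on both days and at 617 and 372 RU in TFR cells, hence at least 12.3-fold higher (adjusted p = 0.000691). Cd226 (1.43 ± 0.17) and Cd96 (0.78 ± 0.09), which share ligands with Tigit, were higher too. Btla, an inhibitory receptor, was at 24320 and 26225 RU in TFH and 13437 and 15987 RU in TFR cells (-0.78 ± 0.08, adjusted p = 0.00461), and 4632428N05Rik, the gene of the inhibitory receptor VISTA, was lower as well (-0.65 ± 0.11).

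Chemokine receptors and genes of lymph node egress were among the groups with the largest share of differences. Of 22 tested members (77.3% called, all genes 22.6%), 13 were called higher and 4 lower in TFR cells, with a median of 1.34. Klf2, the transcription factor that sustains egress receptors, was at 6302 and 4748 RU in TFH and 25420 and 13702 RU in TFR cells (1.77 ± 0.21, adjusted p = 0.00636). Its known target S1pr1 (1738 and 1598 RU as against 4452 and 2983 RU, 1.13 ± 0.18) was called higher with it. Ccr7, which keeps T cells in the T zone, was at 4671 and 7209 RU in TFH and 20163 and 18533 RU in TFR cells (1.74 ± 0.19, adjusted p = 0.00559). Ccr6, Ccr8, and Cxcr3 guide cells to tissues outside the follicle. Ccr6 was at 5029 and 1993 RU in TFH and 28434 and 26282 RU in TFR cells (3.11 ± 0.36), Ccr8 at 141 and 169 RU as against 1303 and 1531 RU (3.19 ± 0.11, with 4.77 for its other probe), and Cxcr3 at 10735 and 8030 RU as against 30249 and 29030 RU (1.67 ± 0.16). Ccr2 and Ccr3 were not above background in TFH cells and were at least 4.07-fold and 2.54-fold higher. Lower were Cxcr5, Ccr9, and the receptors S1pr2 and Cxcr4, which place cells within the GC. S1pr2 was at 6491 and 4666 RU in TFH and 921 and 978 RU in TFR cells (-2.54 ± 0.15, adjusted p = 0.00115), and Cxcr4 was at 5991 and 6361 RU as against 1697 and 2542 RU (-1.57 ± 0.29, adjusted p = 0.0222). Only 8 members were called higher and 2 lower without the TFR array of d12.

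Genes that build selectin ligands and handle sialic acids were split. Of 14 tested members of this list (78.6% called, all genes 22.6%), 7 were called higher and 4 lower in TFR cells. The median was 0.78. Selplg (PSGL1), the protein that carries the ligand, was at 9602 and 5489 RU in TFH and 23788 and 18719 RU in TFR cells (1.54 ± 0.19, adjusted p = 0.00777). Gcnt1, which branches its O-glycans, was at 3192 and 3057 RU as against 6015 and 8583 RU (1.20 ± 0.15, adjusted p = 0.00823), and St3gal4, which adds sialic acid, was higher by 0.80. On the other hand, the sialyltransferase genes St3gal1 (30773 and 31448 RU in TFH, 17546 and 16989 RU in TFR cells, -0.85 ± 0.08), St3gal3 (-0.82), and St3gal6 (-0.87) and the sialidase gene Neu1 (-0.70) were lower. Cmah, which hydroxylates sialic acid, was higher in TFR cells (566 and 413 RU as against 1000 and 1020 RU, 1.06 ± 0.15), as was the sialidase gene Neu3 (1.11 ± 0.09). These counts were 3 higher and 2 lower without the TFR array of d12 and 4 higher and 1 lower without that of d25.

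Integrin chains, which bind matrix and vessel walls, were split. Of 14 tested chains (64.3% called, all genes 22.6%), 6 were called higher and 3 lower, with a median of 0.62. Besides Itgae, these were Itga4 (1115 and 2609 RU in TFH, 6386 and 8274 RU in TFR cells, 2.09 ± 0.29), Itgb7 (27438 and 17463 RU as against 50484 and 45205 RU, 1.13 ± 0.20), Itgb3 (1.84), Itga6 (1.33), and Itgb1 (0.72). Itga4 pairs with Itgb7 to bind the gut addressin. The chains of LFA1, Itgal (11843 and 11605 RU as against 7651 and 7889 RU, -0.59 ± 0.08) and Itgb2 (-0.47), were lower, as was Itgb4 (-0.47). Without either TFR array, 2 chains were called higher and none lower.

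Of 44 tested transcription factors of T cell subsets (61.4% called, all genes 22.6%), 12 were called higher, Foxp3 among them, and 15 lower. The median was -0.28. Factors of effector T and Treg cells were on the TFR side. Ahr, the aryl hydrocarbon receptor, was at 853 and 661 RU in TFH and 4956 and 8322 RU in TFR cells (3.1 ± 0.28, adjusted p = 0.00322). Tbx21 (Tbet, 610 and 773 RU as against 2006 and 1732 RU, 1.44 ± 0.20), Gata3 (7301 and 4907 RU as against 11888 and 10059 RU, 0.87 ± 0.16), Pparg (1.32), and Runx3 (2.74 ± 0.29, with 1.18 for its other probe) were higher as well. Bach2, which restrains effector differentiation, was at 736 and 1212 RU as against 1991 and 2371 RU (1.20 ± 0.14, adjusted p = 0.00671). On the TFH side, Vdr, the vitamin D receptor, was at 3595 and 2635 RU in TFH and 211 and 453 RU in TFR cells (-3.32 ± 0.37, adjusted p = 0.00568). The Ikaros family split, as Ikzf1 (11776 and 13690 RU as against 5151 and 4904 RU, -1.34 ± 0.10) and Ikzf3 (-1.59 ± 0.26) were lower while Ikzf2 and Ikzf4 were higher. Tox2 (-2.05), Zeb2 (-2.09), and Hif1a (-1.37) were lower too. Maf, a driver of Il4 and Il21, was at 30956 and 47793 RU in TFH and 15974 and 25333 RU in TFR cells (-0.94 ± 0.23, adjusted p = 0.0442). Without the TFR array of d12, 6 factors were called higher and 6 lower.

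Many cell cycle genes were higher in TFR cells. Of 35 tested members (68.6% called, all genes 22.6%), 24 were called higher and none lower. The median was 1.02 with a range from -0.28 to 1.43. For each of the 35, the sign was the same on both days, which the test fixes in advance for the 24 called members. Ccna2, encoding cyclin A2, was at 2968 and 2473 RU in TFH and 7608 and 6997 RU in TFR cells (1.43 ± 0.09, adjusted p = 0.0013). Mki67, the proliferation marker, was at 3408 and 2290 RU as against 6160 and 6045 RU (1.13 ± 0.19, adjusted p = 0.0169), and Birc5 (survivin) was at 8580 and 5640 RU as against 22742 and 12935 RU (1.30 ± 0.13, adjusted p = 0.00421). The group's number of calls depended on single arrays. Without the TFR array of d12 4 members were called and without that of d25 6, without the TFH array of d25 13, with the slide as a term 9, and with the methods' Tukey test none. At d12 alone, 14 members were at least 2-fold higher and none lower.

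Interferon-stimulated genes were in part higher in TFR cells, with 13 of 28 tested members called higher and none lower. The share called was 46.4%, against 22.6% of all genes tested, and the median was 0.47. Gbp3, a guanylate binding protein, was at 1487 and 1834 RU in TFH and 5006 and 6638 RU in TFR cells (1.80 ± 0.10, adjusted p = 0.000965), and Bst2 (tetherin) was at 13332 and 14381 RU as against 31913 and 29252 RU (1.14 ± 0.10). Ifit3 was at 1542 and 1643 RU as against 4030 and 3991 RU (1.33 ± 0.09, adjusted p = 0.00174). Other members of the group, such as Isg15 (-0.29) and Irf7 (0.35), were not called. Without the TFR array of d12 4 members were called and without that of d25 5. Of 20 glycolysis genes (35% called, all genes 22.6%), 3 were called higher and 4 lower, with a median of -0.19. Hexokinase 2 (Hk2, 434 and 268 RU in TFH, 1075 and 856 RU in TFR cells, 1.49 ± 0.25) and the glucose transporter gene Slc2a3 (1893 and 1522 RU as against 4025 and 4136 RU, 1.27 ± 0.16) were higher, and the phosphofructokinase gene Pfkp (5581 and 4672 RU as against 2186 and 2184 RU, -1.22 ± 0.12) was lower. Without the TFR array of d12 none of the 20 was called, and without that of d25 1 was called lower.

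A number of the calls in these lists did not hold when the TFH array of d25 was left out, although the sign stayed the same for each of them. Among members called higher, the log2 difference was then 1.01 for Ikzf2, 1.02 for Nrp1, 1.1 for Pim1, 0.53 for Slamf1, 1.14 for Lif, 2.14 for Ccr3, 1.15 for S1pr1, 0.65 for St3gal4, 0.63 for Gata3, 0.9 for Mki67, 1.14 for Hk2, and 0.49 for the myeloid marker C1qb. Among members called lower, it was -1.9 for Il4, -0.72 for Maf, -0.43 for Sh2d1a, -0.56 for Tnfsf11, -2.33 for Tnfrsf21, -0.58 for 4632428N05Rik, -0.99 for Ccr9, -0.5 for Neu1, -0.64 for St3gal3, -0.9 for St3gal6, -0.54 for Itgb4, -1.91 for Zeb2, and -1.24 for Hif1a. The same held for Cd22 (-0.81), Cd4 (-0.47), Lck (-0.49), and Xbp1 (-0.54). The adjusted p of these genes lay between 0.0503 for Hif1a and 0.177 for Maf and Ccr9. With the slide as a term, all of these but Hif1a, Mki67, and Tnfrsf21 were likewise not called. Further calls that did not hold with the slide as a term were those of Ctla4, Tgfb1, Il2rb, Areg, Il18rap, Fas, Tnfrsf12a, Tnfrsf14, Cxcr4, Cmah, Itgb1, Itgb2, Itgb7, Tbx21, Ikzf3, Lef1, Pou2af1, Slc2a3, and Cd68, with an adjusted p between 0.0521 for Lef1 and 0.132 for Areg.

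Apart from the genes above, the 12 largest differences in each direction among genes above background on all 4 arrays included the following genes. On the TFR side, Dnah7b, an axonemal dynein gene, was at 99 and 292 RU in TFH and 8781 and 14433 RU in TFR cells (6.05 ± 0.39), and She, encoding an SH2 adaptor, was at 80 RU on both days as against 3200 and 3625 RU (5.41 ± 0.13). Dgat2, which makes triglycerides, was at 257 and 227 RU as against 3850 and 4737 RU (4.14 ± 0.17), Gsta4 was higher by 4.0 ± 0.17, and Serpinc1 (antithrombin) was at 285 and 327 RU as against 3919 and 5087 RU (3.87 ± 0.36). Bounds beyond those of Klrg1 and Il1rl1 were at least 174-fold for Gm4956, at least 34.1-fold for Dscam, and at least 30.4-fold for the growth factor gene Vegfc. On the TFH side, Padi4, a peptidylarginine deiminase gene, was at 14184 and 7695 RU in TFH and 361 and 252 RU in TFR cells (-5.11 ± 0.19, adjusted p = 0.000496). Pde3b, a cyclic nucleotide phosphodiesterase gene, was at 18805 and 35268 RU as against 829 and 898 RU (-4.90 ± 0.21), and the transporter gene Abcc3 was at 13418 and 18764 RU as against 678 and 898 RU (-4.35 ± 0.38). Pipox, a peroxisomal oxidase gene, was at 4030 and 5872 RU as against 260 and 209 RU (-4.38 ± 0.39). Above background on 1 TFR array only were Krt6b (at least 28.4-fold lower) and Fbn2 (at least 21.9-fold), and on none the RNA-binding protein gene Cpeb1 (at least 25.6-fold), the dopamine hydroxylase gene Dbh (at least 20.4-fold), and the calcium channel gene Cacna1g (at least 13.0-fold).

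Of the 12 largest differences on the TFH side, 5 were not called without the TFH array of d25, and their calls were also lost without some other arrays. Apoc4, an apolipoprotein gene, was at 1566 and 13072 RU in TFH and 105 and 578 RU in TFR cells (-4.20 ± 0.89, adjusted p = 0.0326), and without this array the difference was -3.08 (adjusted p = 0.122). The others were 4 immunoglobulin kappa variable transcripts on chromosome 6, whose differences ranged from -4.24 to -4.10 (adjusted p from 0.0252 to 0.0443). These transcripts belong to a family of near-identical genes and their probes may share signal, so that they are uncertain as single genes. One of them, ENSMUST00000197560 (chr6:70557842-70557901), was at 5419 and 9859 RU in TFH and 505 and 358 RU in TFR cells. Without the TFH array of d25 the 4 differences ranged from -2.92 to -2.83 and were not called, nor were they called with the slide as a term.

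The study had singled out 7 genes as candidates from data that include these arrays, so that their counts are not independent evidence. Of these (71.4% called, all genes 22.6%), 2 were called higher (Nrn1 and Penk) and 3 lower in TFR cells (Sostdc1, Smtn, and Popdc2), with a median of -0.09. Penk, the precursor of enkephalins, was at 5686 and 14552 RU in TFH and 79410 and 109695 RU in TFR cells (3.36 ± 0.31, adjusted p = 0.00339). Smtn, a smooth muscle cytoskeleton gene, was at 32806 and 42978 RU as against 2207 and 1928 RU (-4.19 ± 0.24, adjusted p = 0.00103), and Popdc2, a membrane protein gene of muscle, was at 12013 and 8967 RU as against 1047 and 589 RU (-3.72 ± 0.26, adjusted p = 0.00169). Actg2, a smooth muscle actin gene, was at 2591 and 3385 RU in TFH and 18815 and 11993 RU in TFR cells but was not called (2.34 ± 0.60, adjusted p = 0.0505). Bmp7 was nearly level with 8638 and 8394 RU as against 8506 and 7484 RU (-0.09 ± 0.08, adjusted p = 0.461).

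To see which differences follow Foxp3 outside the follicle, Treg cells were set against Tnaive cells in the same fit. Treg cells differed from Tnaive cells in 1497 genes (9.70%), of which 924 were higher and 573 lower. Of the genes called between TFR and TFH cells, 766 were called in the same direction between Treg and Tnaive cells, 504 higher and 262 lower. These were 22% of the former and 51.2% of the latter calls, and 122 genes were called in opposite directions. Among genes called higher in TFR cells 27.7% were also higher in Treg cells, while 15.7% of the lower genes were also lower there. With at least a 4-fold difference, these shares were 45.5% and 20.6%. The directions had unequal starting numbers, as Treg cells had 924 higher but only 573 lower calls against Tnaive cells. Both comparisons also used the same variance estimate for a gene, which links their calls. Hence these shares do not tell whether higher genes follow Foxp3 more often than lower genes. Across all genes tested, the 2 differences correlated with Pearson r = 0.477 and Spearman rho = 0.378, where genes are not independent and both differences of d25 span the same pair of slides. Of 27 Treg identity genes, 22 were also called higher in Treg than Tnaive cells, with a median of 3.63, where Foxp3 was again the gene of the gate. Of the 34 TFH identity genes 13 were higher and 6 lower, with a median of 0.17.

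The difference of both differences, (TFR minus TFH) minus (Treg minus Tnaive), was called for 1276 genes (8.27%), 590 above and 686 below 0. Of the 27 Treg identity genes, 8 were called below and 3 above 0. Ikzf2 had 1.19 in the follicular and 6.21 in the non-follicular comparison (-5.02 ± 0.27, adjusted p = 0.00313), and Ctla4 had 0.68 and 3.79 (-3.1 ± 0.13, adjusted p = 0.00269). Nrp1, a semaphorin coreceptor of thymic Treg cells, was at 1281 and 1158 RU in TFH and 2741 and 2715 RU in TFR cells (1.16) and had 4.10 between Treg and Tnaive cells (-2.94 ± 0.26, adjusted p = 0.00801). Il2ra differed by 5.82 and 6.52 and was not called (-0.70 ± 0.15, adjusted p = 0.0626). In the TFH identity list, 16 members were called below 0 and none above. Ascl2 went in opposite directions, with -3.43 between TFR and TFH cells and 2.92 between Treg and Tnaive cells (-6.34 ± 0.33, adjusted p = 0.00313, for the probe with the larger difference), and so did Cxcr5 with -2.37 and 1.22 (-3.59 ± 0.30, adjusted p = 0.00747). Above 0 were Nrn1 (1.52 ± 0.13), the chemokine receptor genes Ccr8 (2.04 ± 0.16) and Ccr7 (2.31 ± 0.27), Klf2 (1.81 ± 0.29), and Il18r1 (3.80 ± 0.22). Klf2 was 1.77 higher in TFR than TFH cells but level between Treg and Tnaive cells (-0.04). For Fut7, the difference of differences missed the threshold (0.70 ± 0.14, adjusted p = 0.053).

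**Figure D5:**
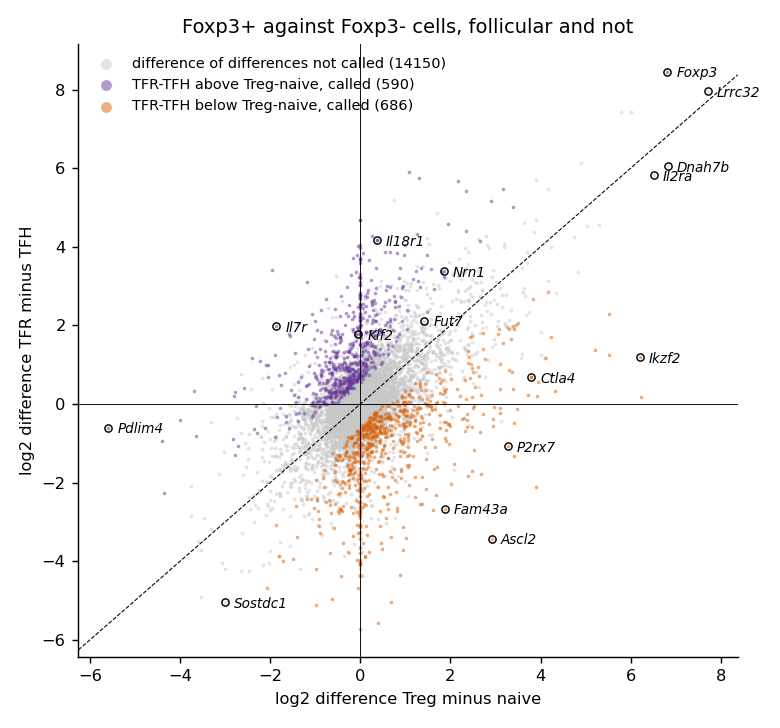
Log2 difference of Treg minus Tnaive cells (horizontal) and of TFR minus TFH cells (vertical) for 15426 genes, with 1 point per gene, color for genes whose difference of differences was called above (590) or below (686) 0, and the dashed line for equal differences. Lrrc32 (7.71 and 7.96) lies near the line, whereas Ikzf2 (6.21 and 1.19) and Ascl2 (2.92 and -3.43) lie below it.

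Markers of other cells were examined on the same arrays. Of 8 tested B cell markers (12.5% called, all genes 22.6%), 1 (Cd22) was called lower and none higher in TFR cells. The median was -1.20. Cd22 was at 5538 and 3722 RU in TFH and 3001 and 2007 RU in TFR cells (-0.89 ± 0.12, adjusted p = 0.00977). In all, 9 of the 14 markers were lower in TFR cells at d12 and 13 at d25. With the TFH array of d25 left out, 2 B cell markers were called higher and none lower, with a median of -0.04, and with that of d12 left out 5 were called lower. Of 6 tested markers of GC B and antibody-secreting cells (33.3% called), 2 were called lower. These were Mef2b (7167 RU on both days in TFH, 523 and 510 RU in TFR cells, -3.79 ± 0.18, adjusted p = 0.000766) and Xbp1 (-0.55 ± 0.09). Summed over this list, the level was 43927 and 48276 RU in TFH and 23325 and 29366 RU in TFR cells. What B cell RNA contributed to the Mef2b difference was not tested. The immunoglobulin kappa transcripts were higher in TFH cells on both days, and the part of B cell RNA in their differences was not tested. Myeloid markers summed to 69913 and 69880 RU in TFH and 61549 and 60912 RU in TFR cells. Among 10 tested (20% called), C1qb was called higher and Cd68 lower. Of 4 tested CD8 T and NK cell markers, none was called. Among 8 T cell markers (37.5% called), Cd4 (-0.63 ± 0.12), Lck (-0.67 ± 0.14), and Cd247 (-0.73 ± 0.09) were called lower and none higher. Cd3e was level (0.01). Cd247 had another probe above background with a difference of 0.11.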

How the data were processed

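Cells from pLN were sorted by the authors, and 25 ng of total RNA per pool was amplified once, labeled with 1 dye, and hybridized to Agilent arrays with 4 spots per probe. The authors extracted spots with Agilent Feature Extraction 10.7.3.1, dropped flagged and outlying spots, averaged spots, applied quantile normalization, set the 75th percentile to 1500, and put values under 20 at 20. Both the spot intensities and the table of normalized intensities (RU) were deposited by the authors, and log2 of the table was used here. Log2 values rebuilt from the spots were checked against it. Of the spots, 86.45% to 89.18% were kept. The probe with the highest mean over 8 arrays stood for a gene. Gene names and probe positions (build NCBI37) are those of the files. Quantile normalization gives all arrays 1 distribution, so a shift common to most genes would not appear.

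A probe was well above background if over 0.5 of its spots carried that flag. Differences were fitted with limma 3.58.1 in R 4.3.3 (lmFit, eBayes) on all 8 arrays with cell type and day as terms, which leaves 3 residual degrees of freedom, and p-values were adjusted by Benjamini-Hochberg over 15426 genes. The day term pairs TFR and TFH cells of a day. Named were Foxp3, Nrn1, Sostdc1, and Fut7, the 12 largest called differences in each direction among genes above background on all 4 arrays, the 5 largest bounds in each direction, 4 called members per list, and the 6 largest differences of differences in each direction. Other list members were named after their values were seen. The members and lists were chosen with earlier results of these data known. The script was tested on simulated data. Alternatives were other normalizations, filters, probe rules, slide terms, the methods' Tukey test, and leaving out each array. The Tukey test was run on log2 values of the 4 pLN cell types, and its p-values were adjusted over all genes tested. The paper describes no such adjustment for this test, and before it 2561 genes had a Tukey p below 0.05. Cells from Peyer's Patches were not analysed here. Some list members are not reported here by name.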

Additional observations from a re-analysis of the deposited data

Results flagged for a closer look

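The TFR minus TFH difference differed from the Treg minus Tnaive difference for 1276 genes by the limma contrast of both, and the 6 largest in each direction among genes above background on all 8 arrays were looked at. Pdlim4 had the largest positive difference of differences with 4.97 (adjusted p = 0.00527), since it was at 28198 and 23568 RU in Tnaive cells and between 228 and 582 RU on the other 6 arrays. Nme4 (3.60) and Lypd6b (3.45) likewise were highest in Tnaive cells. Il7r, the IL7 receptor chain, was at 1089 and 2450 RU in TFH and 4929 and 8417 RU in TFR cells but fell from 33900 and 36691 RU in Tnaive to 8842 and 10740 RU in Treg cells, giving 3.84 (adjusted p = 0.011). Tmem141 had 3.58, with TFR cells above TFH and Treg cells below Tnaive cells. Il18r1 had 3.80 (adjusted p = 0.0034) and was near level between Treg (3759 and 4782 RU) and Tnaive cells (3115 and 3479 RU).

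In the other direction, a transcript annotated as T cell receptor gamma constant region 1 (ENSMUST00000103558) was at 2567 and 2855 RU in Treg cells and between 102 and 462 RU on the other arrays, giving -4.73 (adjusted p = 0.00884). Fam43a (-4.53) and Fam20a (-4.07) were highest in TFH cells, with 11278 and 16302 RU for Fam43a. P2rx7, the ATP receptor, had -4.33 (adjusted p = 0.00248), with 30182 and 35418 RU in TFH, 15864 and 15364 RU in TFR, 13030 and 14184 RU in Treg, and 1251 and 1595 RU in Tnaive cells. Osgin1 had -4.45 and Sema7a -4.06. Of 19 alternatives, Sema7a was not called under 8, Il7r under 5, the T cell receptor transcript under 3, Osgin1 under 2, and Fam20a under 1, and the other 7 genes were called under all 19.

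Cd79b, a B cell receptor chain, was higher in TFR cells by 1.89 at d12 and lower at d25 with -0.19. The difference was not tested.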

How the results depend on the processing

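The 3487 calls between TFR and TFH cells changed by less than 1.5 times, to between 3097 and 4224, with values rebuilt from the spots, with 75th percentile or normexp processing, with a raised floor of 100 RU, with probes averaged, with genes above background on all 4 arrays only, with the slide as a random block, and with an intensity trend. Fewer were called with no filter on background (1708, 910 higher and 798 lower), no day term (2196, of which 978 lower), the slide as a fixed block (1414, 799 and 615), the 4 arrays alone (2152, 1195 and 957), the methods' Tukey test (384, 209 and 175), and the call at 2-fold (1560, 912 and 648). Leaving out 1 array gave 939 to 2872 calls, 530 to 1608 higher and 409 to 1264 lower. These fits have 1 residual degree of freedom less, and a cell type left with 1 array is assumed to vary like the others. Besides the TFR arrays, the TFH array of d25 reduced the count by over 1.5 times (2099). For Treg and Tnaive cells, the calls were 688 with no filter, 922 with no day term, 484 with the slide as a fixed block, 21 by the Tukey test, 828 at 2-fold, and 385 to 1778 without 1 array. The difference of differences gave 434 with no filter, 732 with no day term, 649 with the slide as a fixed block, and 248 to 1025 without 1 array. The Tukey test was not run for it. The day term pairs the cell types of a day, so that the fit without it is the unpaired one. Of 120 calls of single genes examined, 66 held without each array in turn and 27 under every alternative with a test.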
